A study of Mus musculus with 2 samples.

Results

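Stromal fibroblasts of the mouse choroid plexus that carried lumican (Lum), Efemp1 and Inmt transcripts and were rich in apolipoprotein D (Apod) were described at 3 and at 24 months of age. They were chosen by UMIs, unique molecular identifiers that each stand for 1 captured transcript copy. A barcode was kept with at least 500 genes, at most 25% mitochondrial UMIs and less than 10% of its UMIs from transthyretin (Ttr), the main product of the epithelium. It was called mesenchymal with at least 5 UMIs of a set of 8 genes (Pdgfra, Ogn, Serpinf1, Dpep1, Dcn, Lum and the collagens Col1a2 and Col1a1) and fewer than 8 UMIs of a set of 8 endothelial genes. A mesenchymal barcode was a member when Inmt, Itih5, Adh1, Lum and Efemp1 together had more UMIs than Clmp, Cpxm1, Coch, Crabp1 and Slc7a11 together. The young library had 740 members among its 9154 barcodes and the aged one 1204 among 10430, 1944 of 19584 together. The levels of the rule's own genes are given only as a description.

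The choroid plexus lines the brain ventricles with a secretory epithelium that makes cerebrospinal fluid and encloses a stroma of fenestrated capillaries, immune cells and fibroblasts. The fibroblasts deposit the collagens, proteoglycans and basement membrane on which the epithelium and the vessels rest, and they release growth factors, retinoid-handling proteins and chemokines to both. Apolipoprotein D, a secreted lipocalin, binds arachidonic acid and other small lipids, and it is known as a protein of ageing brain and of oxidative stress.

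The study set young against aged choroid plexus. Both groups were female C57BL/6 mice with no treatment or genetic change named in the labels. Choroid plexus tissue from the lateral ventricles, together with that of the 4th, was pooled from 4 mice aged 3 months and from 4 mice aged 24 months, digested with collagenases and captured in droplets (10x Genomics, 3′ chemistry). With 1 library per age, there was no replicate check, nothing was tested, and age cannot be told apart from the preparation of the library. The libraries held 111403078 and 116777113 UMIs. Members held 3038420 UMIs at 3 months and 3958842 at 24 months, with medians of 3818 and 3074 UMIs and of 1725 and 1442.5 genes per barcode. No member barcode sequence was shared between the libraries. In what follows the value at 3 months comes first, levels are CPM (UMIs per 1000000 UMIs of the members), and ranges in brackets are 95% intervals that cover counting error only.

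The label of these cells was checked against their markers. Apod, which the rule did not use, had a UMI in 83.8% (80.9 to 86.4) of members at 3 months and in 94.5% (93.1 to 95.7) at 24 months. It was found in 11.9% and 24.2% of epithelial barcodes, those with 10% or more of their UMIs from Ttr, at median depths of 17689 and 15257 UMIs, and in 66.3% and 77.2% of the other mesenchymal barcodes. Of the rule's genes, Dcn (decorin) was at 3135 and 4080 CPM, Lum at 1594 and 1957 CPM, the methyltransferase Inmt at 914 and 1365 CPM (1364.5 before rounding) and the matrix protein Efemp1 at 550.0 and 543 CPM. Markers of the other fibroblast type, the rule's second set, were present too: they summed to 2241 and 2345 CPM in members, with Coch at 1234 and 1396 CPM, and to 4002 and 4584 CPM in the other mesenchymal barcodes. The fibroblast receptor Pdgfra, also in the rule, was at 528 and 441 CPM. Markers of endothelium summed to 598 and 612 CPM. They include the 8 endothelial genes that the rule limits, so this sum was bounded in advance and does not check the label. Most of it came from Emcn, at 504 and 478 CPM, while Plvap was at 12.8 and 13.9 CPM. Markers of mural cells, macrophages and lymphocytes summed to 333 and 265 CPM, to 60.2 and 67.9 CPM and to 5.60 and 103 CPM. Of the lymphocyte sum at 24 months, 75.8 CPM was Igkc, and 1 barcode held 109 of its 300 UMIs. Proliferation markers summed to 67.1 and 85.6 CPM, mostly from Pcna, at 33.2 and 33.6 CPM, and Stmn1, at 28.0 and 29.8 CPM. The others had few UMIs: Mki67 3 and 33, Top2a 6 and 26, Birc5 0 and 8, Ube2c 4 and 10, Cenpf 2 and 8 and Cdk1 3 and 3.

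RNA of the epithelium was present in these barcodes. Ttr was at 23882 and 18740 CPM in members, 9.20% and 7.04% of its level in epithelial barcodes, and 12 epithelial markers summed to 28018 and 21345 CPM. Among the members, 10 barcodes at 3 months and 5 at 24 months drew 0.4% or more of their UMIs from 10 other epithelial markers. They were deep, with medians of 24017.5 and 16127 UMIs, and held 6.99% and 2.00% of all member UMIs. Results that rested on them are given with and without them.

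The rule cut through a continuous range of barcodes and not between separate groups. The first set led by 1 or 2 UMIs in 79 members at 3 months and 133 at 24 months. It trailed by 1 or 2 UMIs in 70 and 86 barcodes just outside, and 81 and 86 barcodes were tied. Members made up 61.7% (58.8 to 64.4) of the mesenchymal barcodes at 3 months and 72.7% (70.5 to 74.8) at 24 months. They were 8.44% (7.87 to 9.05) and 11.95% (11.3 to 12.6) of all barcodes that passed the filter. These shares rest on genes whose levels differed between the libraries, and they depend on how many cells of each type came through the dissociation, which was not measured.

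Beside the rule's genes, members differed from the other 460 and 452 mesenchymal barcodes in the same direction at both ages for a group of genes picked after their values were seen. Gelsolin (Gsn), which severs actin filaments, was at 1472 and 1580.0 CPM in members and at 271 and 456 CPM in the others. Moxd1, a monooxygenase-like protein, was at 1352 and 1245 CPM against 657 and 779 CPM. The gelatinase Mmp2 was at 109 and 101 CPM against 27.9 and 46.2 CPM, and Ltbp4, which stores latent TGF-beta in the matrix, at 287 and 253 CPM against 90.5 and 150.2 CPM. Lower in members were the basement membrane collagen Col18a1, at 339 and 263 CPM against 531 and 483 CPM, and the transcription factor Sox4, at 176 and 136 CPM against 281 and 238 CPM. Since the rule splits the barcodes by their own transcripts, these differences describe the members and test nothing.

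To be counted as higher or lower at 24 months, a gene needed a ratio of CPM values of 1.5 or more in one direction and an interval that excluded 1. This is a rule of size, and it does not say whether the ages differ beyond the spread between libraries. Among the 9159 genes with 50 or more UMIs in the 2 libraries together, 379 (4.14%) were higher and 623 (6.8%) were lower. Scaling by TMM factors gave 518 higher and 433 lower, so which direction had more genes depended on the scaling. The median log2 ratio over all genes tested was −0.08. Below, "rose" and "fell" are used of genes past this rule. Counts in the gene lists stand beside these shares of 4.14% and 6.8% over all genes tested.

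**Figure D1:**
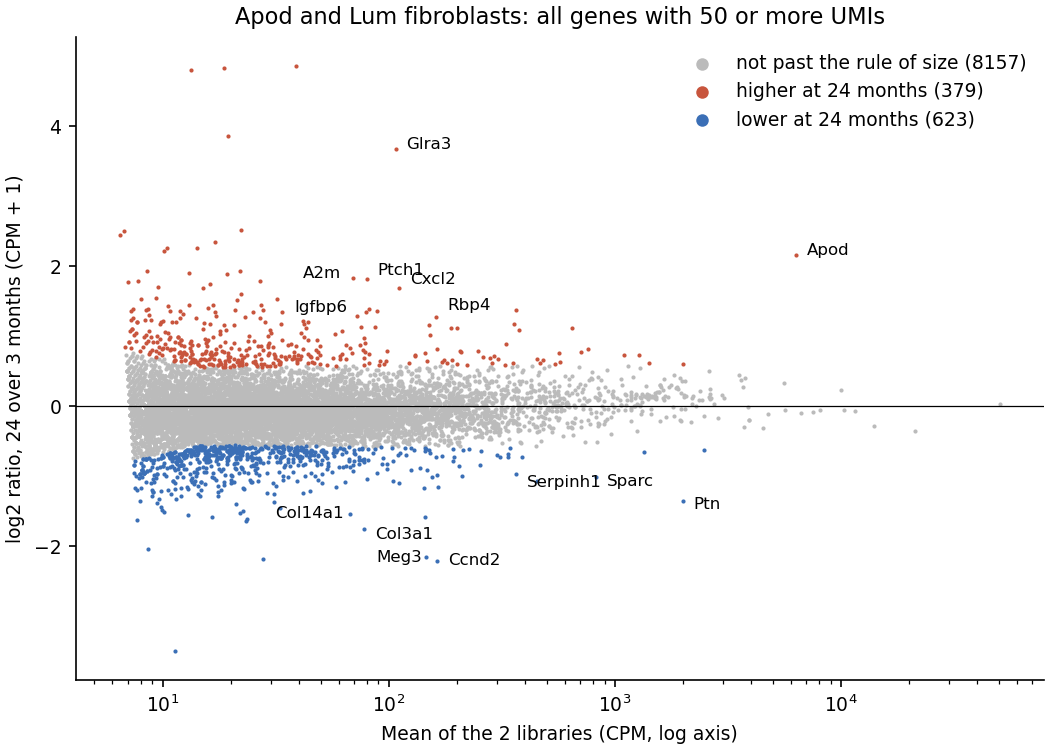
Log2 ratio of CPM plus 1 (24 over 3 months, y axis) against the mean CPM of the 2 libraries (x axis, log scale) for 9159 genes in Apod and Lum fibroblasts. Each point is a gene, coloured when past the rule of size; Apod lies far to the right of the other genes with large positive ratios, at 2330 and 10361 CPM.

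Apod had the highest ratio of all genes at 1000 CPM or more in either library. It was at 2330 CPM at 3 months and 10361 CPM at 24 months, 4.45-fold (4.34 to 4.56). The gene lies on chromosome 16 (31296192 to 31314808, minus strand, mm10). Its level in epithelial barcodes was 8.64 and 25.4 CPM, below that in members at both ages. In other mesenchymal barcodes it was at 720 and 1907 CPM, 2.65-fold, and the difference between these ratios was not tested.

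The higher level was spread over the members. With each barcode thinned to 1500 UMIs, which left out 12 and 27 shallower ones, the median was 2 Apod UMIs per barcode at 3 months and 12 at 24 months. The quartiles were 0 and 5 at 3 months and 3 and 24 at 24 months. No Apod UMI was drawn in 29.3% of the thinned barcodes at 3 months and in 10.4% at 24 months. The level that 5.08% of 3 month barcodes exceeded was exceeded by 46.8% at 24 months. The distributions overlapped, and the highest barcode had 59 and 156 Apod UMIs. The 5% of members with the most Apod held 28.6% of its UMIs at 3 months and 21.6% at 24 months.

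**Figure D2:**
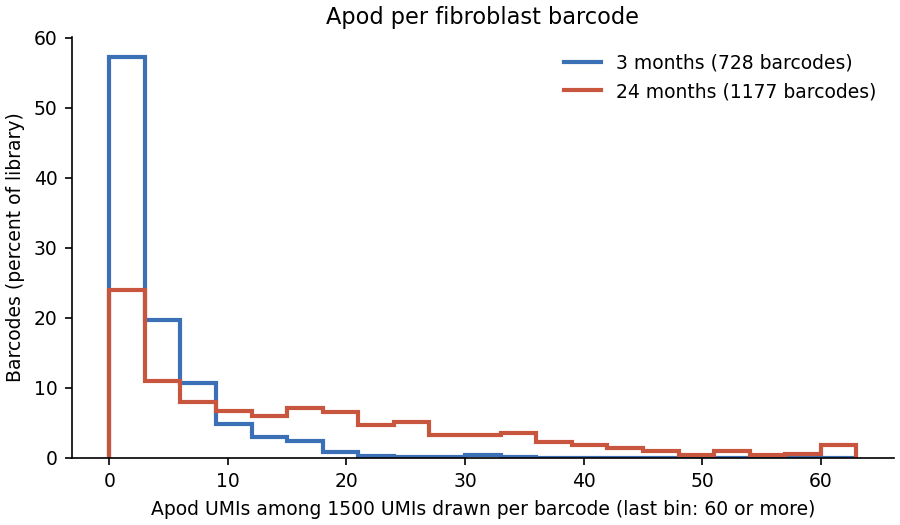
Apod UMIs among 1500 UMIs drawn per barcode (x axis, bins of 3 UMIs, the last for 60 or more) against the percent of the library's barcodes (y axis), for 728 barcodes at 3 months and 1177 at 24 months. Barcodes of 3 months lie mostly in the lowest bins, with a median of 2, and those of 24 months spread to the right, with a median of 12.

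The genes whose level followed Apod from barcode to barcode were sought within each library, over the thinned members and 915 genes found in at least 20% of them at both ages. The measure was Pearson's r of log values, and the barcodes share a library and a depth. Gsn was most like Apod, with r of 0.298 at 3 months and 0.277 at 24 months, followed by the rule gene Dcn with 0.266 and 0.269. Pleiotrophin (Ptn), a heparin-binding growth factor, had r of 0.220 and 0.186, Moxd1 0.182 and 0.180, the tetraspanin Cd9 0.166 and 0.167 and Igfbp7 0.164 and 0.161. Most unlike it were Idi1 of isoprenoid synthesis, with −0.121 and −0.185, Col18a1 with −0.139 and −0.145, and Errfi1 with −0.104 and −0.171. All of these correlations were weak.

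Glra3, a subunit of the glycine-gated chloride channel on chromosome 8 (55940460 to 56130070), had the largest ratio among genes at 100 CPM or more. Its 45 and 791 UMIs gave 14.8 and 199.8 CPM, 13.5-fold (9.99 to 18.6). Thinned members with a UMI were 2.34% (1.37 to 3.71) and 19.5% (17.2 to 21.8), against 0% (0 to 0.0622) and 0.0575% of epithelial barcodes. It was more frequent outside the members: thinned other mesenchymal barcodes with a UMI were 5.09% and 27.4%, and its level there was 40.9 and 267 CPM. Within the members, too, it was lower the further a barcode lay from the limit of the rule. Where the first set had 0.5 to 0.6 of the UMIs of both sets Glra3 was at 26.5 and 315 CPM, and where it had 0.75 to 0.9 at 4.53 and 145 CPM. Above 0.9 the young library held 0 UMIs and the aged one 17.

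Apod ran the other way along the rule. From the lowest to the highest of these 4 ranges it was at 1354, 2219, 3187 and 2391 CPM at 3 months and at 5111, 10251, 12922 and 12849 CPM at 24 months. The rise was thus present in every range, between 3.78-fold and 5.37-fold. Rbp4, the plasma carrier of retinol, was lower along the rule at 3 months, from 162 down to 27.3 CPM, but was at 217 to 246 CPM in every range at 24 months. Over all members Rbp4 was at 94.5 and 231 CPM, 2.44-fold (2.14 to 2.80), against 176 and 207 CPM in other mesenchymal barcodes.

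**Figure D3:**
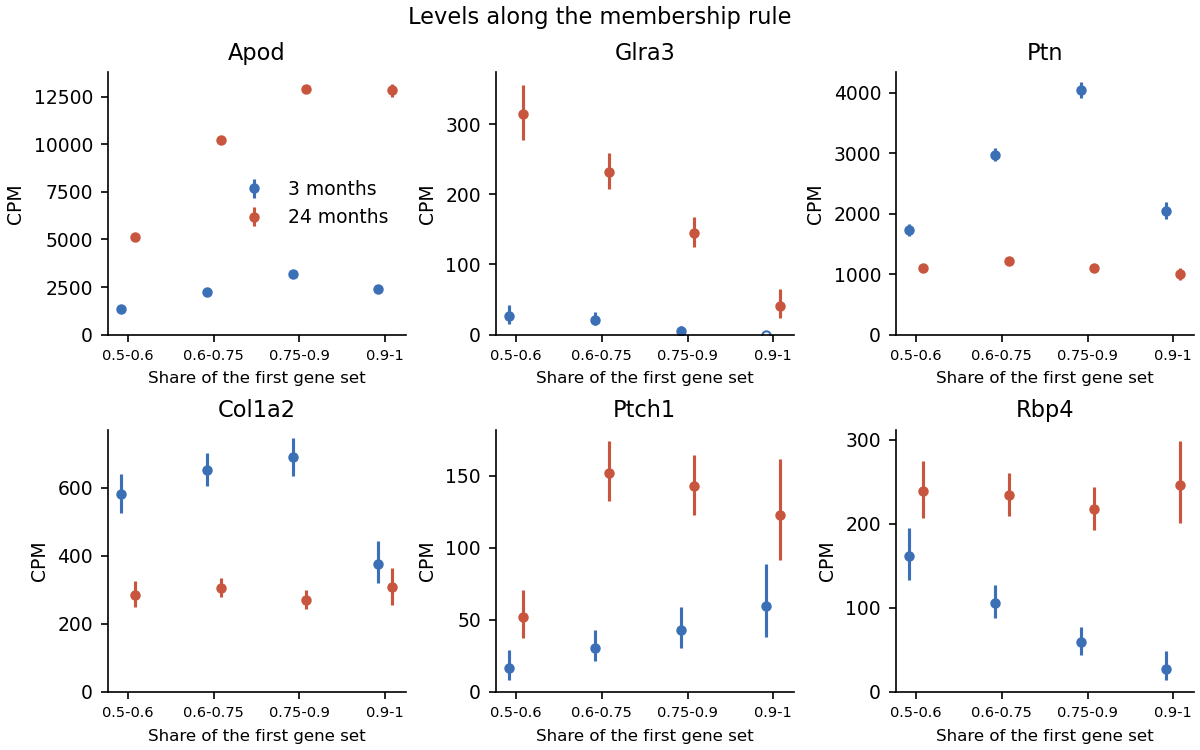
CPM (y axes, from 0) of 6 genes in members grouped by the share of the first gene set among the UMIs of both sets (x axes), at 3 and 24 months, with exact Poisson 95% intervals for counting error and an open point where no UMI was found. Apod, Glra3, Ptch1 and Rbp4 are higher and Ptn lower at 24 months in each of the 4 ranges, and Col1a2 is lower in the first 3.

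The other named genes that rose had diverse roles. Ptch1, the receptor that binds Hedgehog ligands and is itself a target of the pathway, was at 34.9 and 126 CPM, 3.599-fold (2.91 to 4.48). It lies on chromosome 13 (63508328 to 63573598, minus strand). Epithelial barcodes held it at 44.4 and 42.7 CPM and other mesenchymal barcodes at 40.9 and 46.2 CPM. Thinned members with a Ptch1 UMI were 3.98% (2.68 to 5.67) and 14.7% (12.7 to 16.9), while those among epithelial barcodes were 5.99% and 5.62%. With the epithelial profile, scaled to Ttr, subtracted from the members the log2 ratio of Ptch1 was 1.93 in place of 1.82, and without the members rich in epithelial RNA its level was 31.1 and 126 CPM. Igfbp6, which binds insulin-like growth factors, was at 41.8 and 103 CPM, 2.47-fold (2.02 to 3.04). Thbd, the thrombin receptor thrombomodulin, was at 92.5 and 208 CPM, 2.25-fold (1.96 to 2.59). Mpzl2, an adhesion protein, was at 49.4 and 128 CPM, 2.59-fold (2.15 to 3.13). Irgm1, an interferon-inducible GTPase, was at 54.0 and 119 CPM, 2.21-fold (1.85 to 2.66). AW112010, a long intergenic noncoding RNA, rose 2.66-fold, and AC130815.2, known only by its clone name, 2.59-fold. Igfbp6, Thbd, Mpzl2, Irgm1 and AW112010 also rose in other mesenchymal barcodes, while AC130815.2 did not pass the rule of size there. A2m, a broad protease inhibitor, was at 29.9 and 109 CPM, 3.64-fold (2.90 to 4.62), and was higher still in epithelial barcodes, at 170 and 379 CPM.

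Among the genes picked after their values were seen, the matrix phosphoprotein osteopontin (Spp1) was at 407 and 884 CPM, 2.17-fold (2.04 to 2.32). It rose in other mesenchymal barcodes as well, from 462 to 1403 CPM. The glypican Gpc3, a cell surface proteoglycan, was at 119 and 258 CPM, 2.17-fold (1.93 to 2.46), and at 97.2 and 86.1 CPM in other mesenchymal barcodes. Thinned members with a Gpc3 UMI were 15.8% and 28.0%. In epithelial barcodes Spp1 was at 1.13 and 2.62 CPM and Gpc3 at 0.362 and 0.508 CPM.

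Among genes at 1000 CPM or more in either library, Ptn had the lowest ratio. It was at 2881 CPM at 3 months and 1127 CPM at 24 months, a ratio of 0.391 (0.377 to 0.405), with 8755 and 4460 UMIs. Its gene lies on chromosome 6 (36714929 to 36810220, minus strand). The median was 3 UMIs and 1 UMI per thinned barcode, and the share of thinned members with a UMI was 78.8% (75.7 to 81.8) and 58.9% (56.0 to 61.7). In other mesenchymal barcodes it was at 736 and 771 CPM, a ratio of 1.05, so that members stood further above them at 3 than at 24 months. The fall was smallest at the limit of the rule, with ratios of 0.637, 0.407, 0.271 and 0.486 from its lowest to its highest range. Ptn was thus higher in barcodes with more Apod within each library, as its correlations show, and lower in the library with more Apod.

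**Figure D4:**
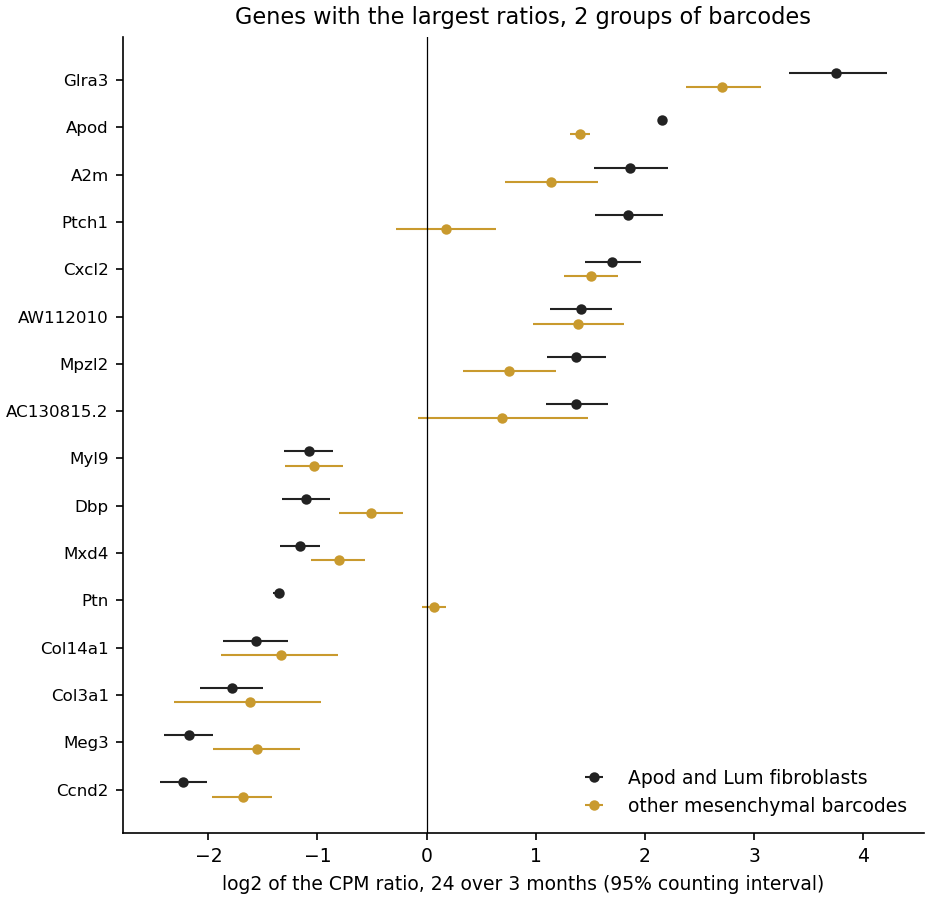
Log2 of the CPM ratio (24 over 3 months, x axis) with its 95% counting interval for the 8 genes with the highest and the 8 with the lowest ratios among the named genes at 100 CPM or more, in Apod and Lum fibroblasts and in the other mesenchymal barcodes. The points of every gene shown but Ptn, at ratios of 0.391 and 1.05, lie on the same side of 0 in both. In the other mesenchymal barcodes the interval of Ptn includes a ratio of 1. So do those of Ptch1, at 1.13 (0.82 to 1.55), and AC130815.2, at 1.615 (0.94 to 2.79). The differences between the ratios were not tested.

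Among genes at 100 CPM or more in either library, Ccnd2 and Meg3 had the lowest ratios. Cyclin D2 (Ccnd2), which drives entry into the cell cycle, was at 269.9 and 57.6 CPM, a ratio of 0.213 (0.183 to 0.247). In other mesenchymal barcodes its ratio was 0.311 (0.257 to 0.375). Thinned members with a Ccnd2 UMI were 28.8% (25.6 to 32.3) and 7.14% (5.73 to 8.76). In epithelial barcodes, where it was at 268 and 176 CPM, they were 28.2% and 18.8%. Its level in members was 260.4 and 56.5 CPM once those rich in epithelial RNA were left out. Cyclin D1 (Ccnd1), below that level, was at 46.1 and 9.35 CPM, a ratio of 0.203 (0.137 to 0.293). Meg3, an imprinted noncoding RNA on chromosome 12 (109541001 to 109571726), was at 241 and 53.0 CPM, a ratio of 0.220 (0.188 to 0.257). Thinned members with a Meg3 UMI were 21.6% and 5.10%, against 4.32% and 7.08% of epithelial barcodes. The level of Meg3 was 258 and 53.1 CPM without the members rich in epithelial RNA. In other mesenchymal barcodes its ratio was 0.341 (0.258 to 0.447). Mxd4, a repressor in the Myc network, was at 227 and 102 CPM. Dbp, a transcription factor of the circadian clock, was at 151 and 70.2 CPM, and Tsc22d3, a target of glucocorticoids, at 217 and 109 CPM. Time of day at collection is not given in the labels, and its part in the level of Dbp was not tested.

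Of 26 measured genes of fibrillar collagens and their assembly, 12 fell and none rose, and the median log2 ratio was −0.53, against −0.08 over all genes tested. By TMM or the median of ratios 11 fell and 1 rose. Col3a1 was at 121 and 35.1 CPM, a ratio of 0.291 (0.237 to 0.354), Col14a1 at 101 and 34.1 CPM, 0.339 (0.274 to 0.416), and Col5a2 at 86.9 and 40.7 CPM, 0.468 (0.382 to 0.572). Col1a1 and Col1a2, which helped to define the members, were at 282 and 140 CPM and at 611 and 290.2 CPM. Both are in the counts and medians of this list, which are thus a description and not independent of the membership rule. The chaperone that folds procollagen, Serpinh1, was at 484 and 246 CPM, 0.508 (0.468 to 0.551), and Sparc, a collagen-binding matrix protein, at 1107 and 546 CPM, 0.493 (0.467 to 0.521). Also lower were Col5a1, Col6a1, Col6a2, the prolyl hydroxylase P4ha2 and the procollagen peptidase Adamts2. Lox, which crosslinks collagen, was short of the rule in the other direction, at 124 and 176 CPM. Per thinned barcode the list's median was 6 and 3 UMIs. The same list in other mesenchymal barcodes had 8 of 25 lower, none higher and a median of −0.44, where 4.28% of all 7522 genes tested were lower and 2.61% higher. Without the members rich in epithelial RNA 14 genes fell, with a median of −0.60.

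Other matrix genes were measured in 3 lists, set beside the 4.14% of all genes tested that rose and the 6.8% that fell. Of basement membrane genes 6.25% rose and 18.75% fell, and of small proteoglycan and elastic fibre genes 3.85% and 7.69%. Of proteases and inhibitors 10% rose and 5% fell. Of 16 basement membrane genes, 3 fell and 1 rose, with a median of −0.25. Those that fell were Col4a2, at 93.5 and 54.3 CPM, the linker protein nidogen (Nid1), at 418 and 252 CPM, and Col15a1, at 138 and 86.6 CPM. The laminin chain Lamb2 rose, at 75.04 and 118 CPM, 1.58-fold (1.34 to 1.86). Of 26 genes of small proteoglycans and elastic fibres, periostin (Postn), at 119.8 and 66.9 CPM, and the microfibril gene Mfap2, at 98.7 and 56.6 CPM, fell and fibromodulin (Fmod) rose, at 16.8 and 39.9 CPM, 2.38-fold (1.72 to 3.33). The median was −0.12, with 4 genes of the membership rule in the list, and biglycan (Bgn), at 974 and 818 CPM, was short of the rule of size. Among 20 matrix proteases and their inhibitors, the aggrecanase Adamts5 fell, at 49.0 and 17.2 CPM, 0.350 (0.259 to 0.470). The protease Mmp23 and the inhibitor Timp1 rose from low levels, with a median for the list of 0.02. Neither Mmp23 nor Timp1 passed once barcodes were thinned.

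Genes of protein folding in the endoplasmic reticulum had 6 of 24 members lower (25%, against 6.8% of all genes tested) and none higher. Their median log2 ratio was −0.30. Manf, a secreted chaperone cofactor, was at 324 and 181 CPM, 0.559 (0.507 to 0.616). The disulfide isomerases Pdia6 and Pdia4 were at 245 and 142 CPM and at 125 and 82.3 CPM. Creld2, at 36.2 and 16.7 CPM, Sdf2l1, at 50.7 and 30.6 CPM, and Dnajb11, at 76.7 and 47.2 CPM, also fell. All 6 had a lower level at 24 months in epithelial barcodes too, for example Manf at 503 and 324 CPM and Creld2 at 52.7 and 28.4 CPM. Without the members rich in epithelial RNA 6 genes fell, with a median of −0.32. With the epithelial profile subtracted 6 fell, with a median of −0.31. The part of carried-over RNA in the members' values was not tested. In other mesenchymal barcodes 3 of 24 fell and none rose, with a median of −0.22, where 4.28% of all genes tested fell.

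**Figure D5:**
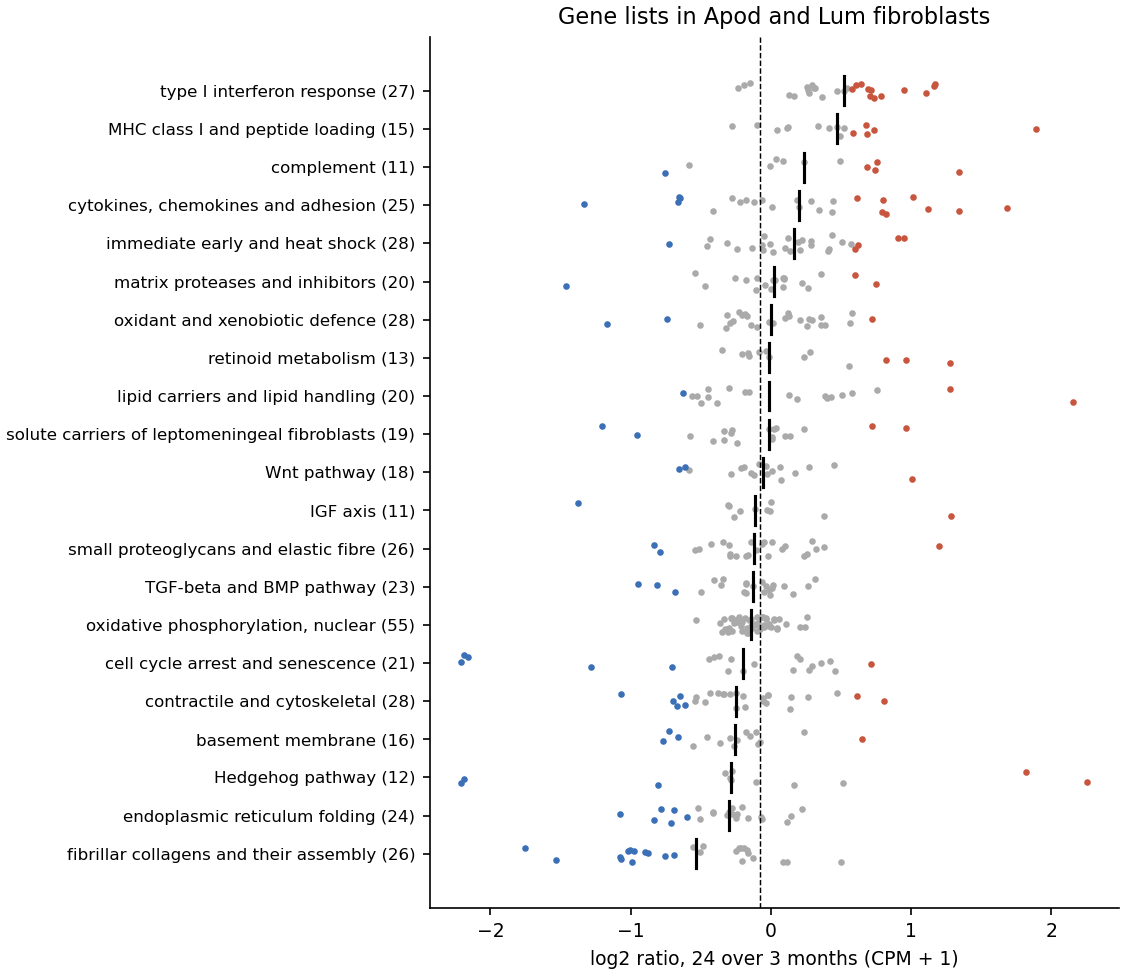
Log2 ratio (24 over 3 months, CPM plus 1, x axis) of each measured gene in 21 lists (y axis, with the number of genes measured); red points rose and blue points fell by the rule of size, black bars are list medians and the dashed line is the median of all genes tested, −0.08. The interferon and MHC class I lists lie furthest right, with medians of 0.52 and 0.47, and the fibrillar collagens furthest left, at −0.53.

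Hedgehog pathway genes passed the rule in both directions. Of 12 measured, Ptch1 and the transcription factor Gli1 rose (16.7%, against 4.14% of all genes tested). The co-receptor Gas1 and the cyclins Ccnd1 and Ccnd2 fell (25%, against 6.8%), and the median was −0.28. The list holds receptors and a signal transducer beside targets and cyclins, so its counts and median give no direction for the pathway. Gli1 had 9 and 71 UMIs, 2.96 and 17.9 CPM, 6.05-fold (3.02 to 13.8), and was at 0.081 and 0.096 CPM in epithelial barcodes. Gas1 was at 40.8 and 22.99 CPM. Hhip, which binds Hedgehog ligands and is likewise a target of the pathway, was at 52.0 and 48.2 CPM, and the signal transducer Smo at 40.5 and 32.1 CPM. In other mesenchymal barcodes none of 8 genes rose and 1 fell, where 2.61% of all genes tested rose and 4.28% fell. The difference from the members was not tested.

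Other growth factor pathways had short lists, set beside the 4.14% of all genes tested that rose and the 6.8% that fell. Of Wnt genes 5.56% rose and 11.1% fell, and of IGF axis genes 9.09% and 9.09%. Of TGF-beta and BMP genes 0% rose and 13.0% fell. Of 18 Wnt genes, Sfrp1, a secreted inhibitor at 71.7 and 45.2 CPM (95.5 and 127 CPM in epithelial barcodes), and the agonist Rspo3, at 32.9 and 21.2 CPM, fell, and the inhibitor Sfrp4 rose from 18 to 51 UMIs; neither fall passed under TMM scaling. Of 11 genes of the IGF axis, Igfbp6 rose and the imprinted gene Mest fell, at 45.4 and 16.9 CPM. Of 23 TGF-beta and BMP genes none rose and Tgfb2, Bmp2 and Bmp6 fell. Tgfb2 depended on how epithelial RNA was handled: at 38.5 and 19.5 CPM over all members its log2 ratio was −0.95. It was 0.039 without the members rich in epithelial RNA, but −1.84 with the epithelial profile, scaled to Ttr, subtracted. Bmp6 was at −0.81 over all members and at 0.048 without those rich in epithelial RNA. Bmp4 was at 72.4 and 54.3 CPM. Smad7, an inhibitor of the pathway, was at 624 and 778 CPM and Ctgf, one of its targets, at 70.1 and 49.3 CPM, and none of these 3 passed the rule.

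Retinoid genes had 3 of 13 members higher (23.1%, against 4.14% of all genes tested) and none lower. The 13 include 3 genes of the membership rule, none of them past the rule of size. Besides Rbp4, the retinaldehyde reductase Dhrs3 was at 118 and 209 CPM, 1.78-fold (1.57 to 2.02), and Aldh1a3, which makes retinoic acid, had 21 and 57 UMIs. The median was −0.01 and turned to 0.07 under TMM scaling. Of 20 lipid genes, Apod and Rbp4 rose (10%, against 4.14% of all genes tested) and Abca8b fell from 16.1 to 10.1 CPM (5%, against 6.8%). Under TMM scaling 5 rose and none fell. The lysosomal receptor Scarb2, at 152 and 228 CPM, reached a ratio of 1.497 and so was short of the limit of 1.5. Of 19 solute carriers and gap junction genes known from leptomeningeal fibroblasts, the glutamate transporter Slc1a3 rose, at 28.6 and 47.7 CPM, as did Slc47a1. Slc13a4 and Slco1a4 fell. These were 10.5% of the list each way, against 4.14% and 6.8% of all genes tested. Slc13a4 stood at 265 and 331 CPM in epithelial barcodes, and neither it nor Slco1a4 fell by the rule without the members rich in epithelial RNA. With the epithelial profile subtracted the log2 ratio of Slc13a4 was −2.20.

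Type I interferon response genes had 12 of 27 members higher and none lower, and their median log2 ratio was 0.52. Ifitm1, a membrane protein that blocks viral entry, was at 826 and 1377 CPM, 1.67-fold (1.59 to 1.75). Ifit3 was at 20.1 and 46.5 CPM, 2.32-fold (1.72 to 3.15), and Ifit1, which binds viral RNA, at 45.7 and 75.5 CPM, 1.65-fold (1.35 to 2.03). The transcription factors Irf7 and Irf9 were at 25.7 and 39.7 CPM and at 30.6 and 48.2 CPM. Trim30a rose 2.35-fold (1.58 to 3.57), beside 3.47 and 15.3 CPM in epithelial barcodes. Ifit3b, whose reads may be split with its near-identical neighbour Ifit3, had 13 and 41 UMIs. The ubiquitin-like modifier Isg15, at 203 and 251 CPM, and Ifi27l2a, at 580 and 522 CPM, did not pass. Per thinned barcode the list's median was 9 UMIs at 3 months and 10 at 24 months, and 6 of its genes passed the rule in thinned barcodes.

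The epithelium carried more interferon RNA at 24 months as well. Ifit1 was at 0.996 and 32.0 CPM in epithelial barcodes and Isg15 at 0.715 and 21.1 CPM, while Ifitm1 was at 4.18 and 7.40 CPM there. After the epithelial profile, scaled to Ttr, was subtracted from the members, 10 genes of the list were higher and the median was 0.39. Without the members rich in epithelial RNA 9 were higher and the median was 0.44. In other mesenchymal barcodes 2 of 21 rose and 1 fell, with a median of 0.05, where 2.61% of all 7522 genes tested rose and 4.28% fell. Those barcodes held fewer UMIs than the members, 2077257 and 1731502, so fewer genes could pass. The difference from the members was not tested.

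MHC class I and peptide loading genes had 5 of 15 members higher and none lower, with a median of 0.47. The heavy chains H2-K1, at 346 and 555 CPM, and H2-T23, at 97.7 and 163 CPM, rose 1.603-fold (1.49 to 1.73) and 1.67-fold (1.46 to 1.92). The immunoproteasome subunits Psmb9 and Psmb8 rose from 29.0 to 47.2 CPM and from 72.4 to 109 CPM. H2-Q7 had 23 and 122 UMIs, and reads of this gene may be shared with its close relatives. The light chain B2m, at 717 and 958 CPM, and H2-D1, at 321 and 460.5 CPM, were short of the rule. Only 3 genes passed when the mean of per-barcode CPM was used. Other mesenchymal barcodes had 3 of 14 higher and a median of 0.42, where 2.61% of all genes tested were higher.

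Complement had 4 of 11 genes higher (36.4%, against 4.14% of all genes tested) and 1 lower (9.09%, against 6.8%), with a median of 0.24. C4b, of the classical pathway, was at 13.8 and 36.6 CPM, 2.65-fold (1.87 to 3.83), the protease C1s1 at 46.4 and 78.3 CPM, 1.69-fold (1.38 to 2.07), and C2 at 59.2 and 95.7 CPM, 1.62-fold (1.35 to 1.94). C6 rose from 26 to 60 UMIs. In other mesenchymal barcodes C4b, C1s1 and C2 rose as well: 3 of 10 genes were higher and none lower, with a median of 0.22. Clusterin (Clu) was at 323 and 455 CPM, short of the rule, against 1870 and 2087 CPM in epithelial barcodes. The inhibitor Cd59a fell over all members, from 84.3 to 49.5 CPM, and was at 401 and 363 CPM in epithelial barcodes. Without the members rich in epithelial RNA its log2 ratio was −0.15 in place of −0.76, but with the epithelial profile subtracted it was −0.99.

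Of 25 cytokine, chemokine and adhesion genes, 8 rose and 4 fell, with a median of 0.20. The neutrophil-attracting chemokines Cxcl1 and Cxcl2 and the lymphocyte-attracting Cxcl10 are encoded on chromosome 5, and NF-kappaB is known to drive all of them. Their promoters are shown because these were the risen chemokines whose promoter held the kappaB motif searched. The sequences are the 250 bases before each RefSeq start on GRCm38.p6, read along the strand of the gene. Capitals mark the letters GGNNTTTCC on either strand. The sequences are those of chr5:90890995-90891244 (plus strand), chr5:90903649-90903898 (plus strand) and chr5:92348890-92349139 (minus strand), in this order.
Cxcl1: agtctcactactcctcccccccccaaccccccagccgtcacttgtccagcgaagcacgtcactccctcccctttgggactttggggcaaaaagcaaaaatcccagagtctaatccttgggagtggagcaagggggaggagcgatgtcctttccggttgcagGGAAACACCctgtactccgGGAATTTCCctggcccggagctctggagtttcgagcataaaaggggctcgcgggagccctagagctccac
Cxcl2: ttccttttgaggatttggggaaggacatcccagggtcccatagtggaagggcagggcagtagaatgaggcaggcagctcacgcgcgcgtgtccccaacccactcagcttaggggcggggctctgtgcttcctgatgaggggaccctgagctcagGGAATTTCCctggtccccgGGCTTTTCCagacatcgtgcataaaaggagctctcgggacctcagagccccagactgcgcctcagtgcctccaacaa
Cxcl10: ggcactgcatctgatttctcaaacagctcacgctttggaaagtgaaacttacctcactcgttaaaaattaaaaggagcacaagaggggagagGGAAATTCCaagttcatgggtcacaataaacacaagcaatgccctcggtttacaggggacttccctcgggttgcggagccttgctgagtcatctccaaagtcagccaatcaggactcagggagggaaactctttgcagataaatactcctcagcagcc
No other motif was searched. This one was held by 4.93% of all 32817 promoters of this length. Of the 8 genes that rose 6 had a promoter in the table and 3 held a match, of the 4 that fell 3 had one and 2 held a match (Cxcl9 and Csf1), and of the 13 others 9 had one and 2 held a match (Il6 and Icam1). A match describes the sequence and not a site in use.

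Cxcl1 was at 551 and 973 CPM, 1.76-fold (1.66 to 1.87), and thinned members with a UMI were 34.6% (31.2 to 38.2) and 49.7% (46.8 to 52.6), against 0.910% and 1.16% of epithelial barcodes. Cxcl2 was at 52.3 and 170 CPM, 3.25-fold (2.73 to 3.89). In other mesenchymal barcodes it was at 94.8 and 269 CPM, 2.83-fold (2.39 to 3.36). Members with a Cxcl2 UMI were 8.92% and 9.47% (9.60% and 4.93% of epithelial barcodes), or 4.26% (2.91 to 5.99) and 6.88% (5.50 to 8.48) of thinned ones, against 1.05% and 0.718% of thinned epithelial ones. Its UMIs were concentrated in few barcodes: the 5% of members with the most held 81.8% of them at 3 months and 91.1% at 24 months, and 1 barcode at 24 months held 87 of 674. Cxcl10 was at 100.05 and 203 CPM, 2.03-fold (1.78 to 2.32), in 8.24% and 12.9% of thinned members. Ccl2, which attracts monocytes, was at 143 and 220.0 CPM, 1.54-fold (1.37 to 1.73), and Cxcl14 at 26.7 and 59.1 CPM, 2.22-fold (1.72 to 2.89). The interleukin-6 family cytokines Il11 and Lif rose from 55.9 to 98.0 CPM and from 18.8 to 49.0 CPM, while Il6 was at 33.2 and 37.9 CPM. Ccl11 rose from 40 to 93 UMIs. These genes, too, were concentrated. The 5% of members with the most held 68.75% and 64.9% of the UMIs of Cxcl10, 68.5% and 71.3% of Ccl2 and 72.8% and 68.8% of Cxcl14. For Il11 they held 67.6% and 60.8%, for Lif 100% and 85.1% and for Ccl11 100% at both ages, while for Cxcl1 it was 37.7% and 33.9%. Genes with few UMIs, such as Ccl11, can reach only few barcodes.

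Those that fell were the adhesion receptor Vcam1, at 1640 and 1042 CPM, 0.635 (0.609 to 0.662), the alarmin Il33, at 312 and 199.1 CPM, 0.639 (0.580 to 0.703), the macrophage growth factor Csf1, at 55.3 and 34.6 CPM, and Cxcl9, with 51 and 24 UMIs. Under TMM scaling 2 genes of the list fell. Cxcl12, the stromal chemokine of most cells, was at 1058 and 1015 CPM and did not pass. The list's median per thinned barcode was 8 UMIs at 3 months and 7 at 24 months. Other mesenchymal barcodes had 5 of 22 genes higher and 2 lower, with a median of 0.28.

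Immediate early and heat shock genes, which respond to enzymatic dissociation, stood beside these chemokines. They summed to 24254 and 28317 CPM, and the median was 0.16. Of these 28 genes 4 rose (14.3%, against 4.14% of all genes tested) and 1 fell (3.57%, against 6.8%). The growth-responsive factors Egr1, at 1588 and 2409 CPM (2408.5 before rounding), Egr2, Egr3 and Nr4a1 rose 1.52-fold to 1.96-fold, and Klf2 fell, at 484 and 292 CPM. Fos was at 2524 and 2744 CPM. In epithelial barcodes Egr1 was at 408 and 754 CPM and Nr4a1 at 114 and 173 CPM. Egr2 was at 0.815 and 1.46 CPM there and Egr3 at 0.211 and 0.220 CPM. Thinned epithelial barcodes with a Fos UMI were 18.5% and 33.6%. Per thinned barcode the list's median was 37.5 and 43 UMIs. The part of dissociation in the chemokine values was not tested. Without the members rich in epithelial RNA 2 genes of the list rose.

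Of 21 genes linked to cell cycle arrest and senescence, 1 rose (4.76%, against 4.14% of all genes tested) and 5 fell (23.8%, against 6.8%), with a median of −0.20. The list holds cyclins beside an inhibitor of the cell cycle, so its counts and median give no direction for arrest or senescence. The cyclin-dependent kinase inhibitor p21 (Cdkn1a) was at 221 and 362 CPM, 1.64-fold (1.496 to 1.80). Thinned members with a Cdkn1a UMI were 23.8% (20.7 to 27.0) and 33.9% (31.2 to 36.7), against 2.21% and 2.59% of epithelial barcodes. Cdkn2a, which encodes p16 and p19, had 12 and 25 UMIs, too few to be tested against the rule. Those that fell were the cyclins Ccnd1 and Ccnd2, Meg3, the lamin Lmnb1, with 42 and 32 UMIs, and the stress cytokine Gdf15, at 21.1 and 8.08 CPM. In thinned barcodes 3 genes fell.

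Contractile and cytoskeletal genes had 5 of 28 lower (17.9%, against 6.8% of all genes tested) and 2 higher (7.14%, against 4.14%), with a median of −0.25. The myosin light chain Myl9 was at 142 and 67.2 CPM, 0.474 (0.405 to 0.553), the alpha-tubulin Tuba1a at 233 and 152 CPM and Tagln at 37.8 and 23.7 CPM. Smooth muscle actin (Acta2) had 47 and 37 UMIs. Mural cell markers summed to 333 and 265 CPM beside these values, and their part was not tested. Annexin A1 (Anxa1), an anti-inflammatory lipid-binding protein, rose from 34.6 to 61.1 CPM, and S100a6 from 30.9 to 48.0 CPM. Other mesenchymal barcodes had 4 of 28 genes lower and none higher, with a median of −0.18.

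Of 28 genes of oxidant and xenobiotic defence 3.57% rose and 7.14% fell, close to the 4.14% and 6.8% of all genes tested. The secreted glutathione peroxidase Gpx3 rose, at 27.0 and 45.2 CPM (21.1 and 46.7 CPM in epithelial barcodes), and the metallothionein Mt3 and Txnip fell. Mt3 was at 197 and 87.4 CPM over all members against 1266 and 951 CPM in epithelial barcodes. Its log2 ratio of −1.17 was −0.69 without the members rich in epithelial RNA, but −1.97 with the epithelial profile subtracted. Txnip, an inhibitor of thioredoxin, was at 119 and 70.7 CPM. None of 55 nuclear genes of oxidative phosphorylation, 13 mitochondrially encoded genes or 80 ribosomal protein genes passed the rule, with medians of −0.14, −0.09 and 0.13.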

How the data were processed

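Single-cell RNA was sequenced from choroid plexus in 1 library per age. The authors deposited UMI counts per gene and barcode, as whole numbers and not normalized, per the file headers and the values. Cell Ranger 4.0.0 and mm10 are named in the submitters' processing notes; no source used here says how barcodes were called. Labels of 20104 of 20375 gene symbols (98.7%) were found in GENCODE vM21, which gave the coordinates. The members and the gene lists were chosen with earlier results of these data known. Genes of the membership rule stayed in the list counts and medians. There were 4 among small proteoglycans, 3 among retinoid genes and 2 among fibrillar collagens. Matrix proteases, solute carriers and oxidant defence held 1 each.

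Barcodes were filtered and chosen by the rule given above. Counts were summed over the members of each library and scaled to CPM (numpy 2.4.6, scipy 1.17.1, pandas 2.3.3). Ratios have exact conditional binomial intervals and shares exact Clopper-Pearson intervals, at 95%; both cover counting error only. Barcodes are not replicates, so no test was made. Log2 ratios are of CPM plus 1, which understates the change of low genes. Scrublet (scanpy 1.11.5) failed to set a usable threshold (14 and 4 barcodes marked), so no doublets were removed; leaving out the 670 and 870 barcodes with the highest scores, 6 and 12 of them members, was an alternative. TMM factors came from edgeR 4.0.16 and the median of ratios from DESeq2 1.42.0, on the summed counts, for scaling only.

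Named genes were the 12 highest and 12 lowest log2 ratios past the rule of size at 100 CPM or more in 1 library, in the same direction under every scaling, at 10% or more of the epithelial level at both ages and not in the rule. That ranking held no predicted, ribosomal protein, haemoglobin or mitochondrial genes and not Xist. Up to 6 genes with the largest ratios at 30 CPM or more were named per list, and Apod, Lum, Dcn, Inmt, Efemp1, Col1a1, Col1a2, Col3a1, Glra3, Ptch1, Ccnd2 and Cdkn1a always. Genes named outside this rule, including the list members at lower levels, were chosen after their values were seen. Some genes that met the rule are not reported here. The calculations were tested on simulated data. Promoter sequences are from RefSeq (GRCm38.p6).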

Additional observations from a re-analysis of the deposited data

Results flagged for a closer look

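For 6 genes the members and the other mesenchymal barcodes passed the rule of size in opposite directions; with 1 library per age the difference was not tested. Col15a1, a collagen of basement membranes, had a log2 ratio of −0.66 in members (138 and 86.6 CPM) and 1.07 in the others (11.6 and 25.4 CPM), from 24 and 44 UMIs there. The formin Fmnl3 was at −0.90 and 0.98, the small proteoglycan Epyc at 0.60 and −1.03, and Tor3a at 0.60 and −0.86. Slc24a5 was at −0.57 and 0.69 and the amino acid transporter Slc7a10 at −0.60 and 0.82. Slc24a5 and Slc7a10 were higher in epithelial barcodes, at 101 and 111 CPM and at 155 and 175 CPM. So was Tor3a, at 26.8 and 28.5 CPM there against 12.5 and 19.45 CPM in members. Without the members rich in epithelial RNA Slc7a10 was at −0.01, but with the epithelial profile subtracted it was at −1.92.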

How the results depend on the processing

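One library per age limits every comparison: intervals cover counting error only, and low genes have few UMIs. No paired analysis was possible because each age is 1 library. Of 1807 values of named genes under 13 alternatives, 1604 moved by less than their counting interval, 197 moved and 6 turned in sign. Genes higher at 24 months numbered 379, and 245 in thinned barcodes, 605 with at least 1 UMI, 151 with at least 200 UMIs and 706 at a looser ratio of 5 to 4. Genes lower numbered 623, and 378 in thinned barcodes, 216 with at least 200 UMIs and 1302 at that looser ratio. In thinned barcodes 6 interferon genes rose in place of 12. Fewer genes were tested in thinned barcodes (6317) and with at least 200 UMIs (4747). Members made up 48.75% of mesenchymal barcodes at 3 months and 57.8% at 24 months when the first set had to lead by 5 UMIs, 64.9% and 75.6% with at least 10 mesenchymal UMIs, and 66.1% and 76.7% without ties. The log2 ratio of Slc13a4 was 0.14 in thinned barcodes, and that of Cd59a 0.00023. For Tgfb2 it was 0.57 in thinned barcodes, 0.022 with the stricter barcode filter, 0.093 with the lead of 5 UMIs and 0.039 without the members rich in epithelial RNA. That last alternative and the subtraction of the epithelial profile were chosen after seeing the data. The cause of the other moves was not tested.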

Other observations

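Some of the most extreme ratios belonged to genes of low level outside the response lists, chosen after their values were seen. The immunoglobulin genes Igkc and Ighm had 5 and 300 UMIs and 1 and 146 UMIs in members. Spink8 had 0 and 106 UMIs, and in epithelial barcodes it was at 1.22 and 343 CPM. The MHC class II chain H2-Ab1 had 18 and 153 UMIs, and the lymphocyte growth factor Il7 had 4 and 48 UMIs, with 0.131 and 0.153 CPM in epithelial barcodes. The lowest ratio was that of Cit, citron kinase, with 66 and 4 UMIs.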
